A study of Mus musculus with 4 samples.

Results

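Cathepsins are proteases that work mainly in the acidic interior of the lysosome, and cystatins are small proteins that block the cysteine cathepsins. The RNA of 10 such genes was examined in cultured keratinocytes (KCs), out of 25814 genes listed in each library. The members were set by name: the cysteine cathepsin genes Ctsb, Ctsc, Ctsh, Ctsl, Ctss and Ctsz, the aspartic cathepsin gene Ctsd, and the cystatin genes Cst3, Cst6 and Cstb. The libraries came from untreated KCs of the tails of adult 129/sv mice, grown in serum-free medium with 0.06 mM calcium. The labels name 2 libraries as wild type (WT) and 2 as Nfat5-/-, that is, from mice lacking the osmosensitive transcription factor NFAT5. The methods describe the mice as siblings whose tails travelled overnight on ice, and the design text counts 2 independent experiments per genotype. How long each culture was kept is not given in the sources used here. P-values measure the spread between these libraries.

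Most cathepsins are made as inactive precursors, carried to the lysosome by mannose 6-phosphate receptors and activated there by cutting. In the epidermis they take part in the turnover of proteins and in the late steps of cornification. Cystatin M/E, the product of Cst6, limits legumain and cathepsin L, which in turn affects the processing of transglutaminase 3, an enzyme that cross-links the cornified envelope. Cystatin C (Cst3) is secreted by most cells, whereas cystatin B (Cstb) stays in the cytosol. Lysosomal genes are controlled in common by the transcription factor TFEB and its relatives, which bind E-box motifs near the start site, and NFAT5 binds an element that opens with TGGAAA.

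The libraries held between 16219445 and 23494436 gene reads. RPKM, the exon reads scaled to exon length and mapped reads, of the Nfat5 gene was 1.67 and 3.0 (WT) against 2.02 and 2.78 (labelled Nfat5-/-). The groups overlapped, so the RNA total of the targeted gene did not check the labels, and each direction below rests on them. Of 7 basal KC markers all were tested and 0 passed in edgeR or DESeq2 (1 at an unadjusted p under 0.05 in each, in edgeR Itga6, with a log2 fold change of -0.42). Krt5 lay between 4990 and 5775 RPKM and Krt14 between 5148 and 6985 RPKM, while Krt15 was at 0.0797 to 0.440 RPKM. Of 5 smooth muscle markers 4 were tested and rose past the threshold in edgeR and DESeq2 (Acta2, Tagln, Cnn1 and Myh11). The 5 summed to 184 and 151 RPKM (WT) against 518 and 819 RPKM (labelled Nfat5-/-), of which Acta2 made up most. Myh11 reached at most 0.294 RPKM, and Des had 1 read in all. Of 6 melanocyte markers 4 were tested, of which Tyrp1 fell past the threshold in edgeR (3 lower at an unadjusted p under 0.05) and Tyrp1 and Pmel in DESeq2, and the 6 summed to 7.51 and 7.14 RPKM (WT) against 2.05 and 2.94 RPKM (labelled Nfat5-/-). Of 9 macrophage and Langerhans cell markers 5 were tested and 0 passed in edgeR or DESeq2 (0 at an unadjusted p under 0.05), at summed levels of 20.4 to 27.3 RPKM, of which Cd68 made up most. Cd207, the marker that defines Langerhans cells, had 0 reads in 3 libraries and 1 read in the other. Of 6 fibroblast markers 2 were tested and 0 passed in either tool (0 at an unadjusted p under 0.05), with summed levels of 0.409 to 1.13 RPKM. The part of these markers in the results below was not tested, and in bulk RNA fewer cells of a type and less RNA per cell cannot be told apart.

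The sequence in front of the start site is shown for 3 cathepsin genes, because 2 of them have the highest mean RPKM among the 7 cathepsin genes and the third, Ctsc, is the member with the smallest p. They are RefSeq windows on GRCm38.p6, 250 bases before to 50 bases after the start site, read 5′ to 3′ on the strand of the gene. The Ctsd window lies at chr7:142387778-142388077 on the minus strand, the Ctsl window at chr13:64370471-64370770 on the minus strand, and the Ctsc window at chr7:88277835-88278134 on the plus strand. Capitals mark the E-box core CACGTG and the core TGGAAA of the NFAT5 element, each searched on both strands.
Ctsd: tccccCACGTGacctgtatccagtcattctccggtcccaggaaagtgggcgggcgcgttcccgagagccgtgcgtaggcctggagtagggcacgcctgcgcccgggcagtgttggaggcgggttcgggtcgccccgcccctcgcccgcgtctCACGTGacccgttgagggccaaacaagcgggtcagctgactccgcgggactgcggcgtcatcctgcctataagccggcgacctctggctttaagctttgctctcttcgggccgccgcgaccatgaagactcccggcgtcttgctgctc
Ctsl: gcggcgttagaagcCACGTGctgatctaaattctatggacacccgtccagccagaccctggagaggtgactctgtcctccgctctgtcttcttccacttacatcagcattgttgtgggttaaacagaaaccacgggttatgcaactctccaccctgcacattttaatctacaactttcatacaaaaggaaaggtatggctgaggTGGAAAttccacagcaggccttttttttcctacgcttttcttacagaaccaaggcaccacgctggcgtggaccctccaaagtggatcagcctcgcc
Ctsc: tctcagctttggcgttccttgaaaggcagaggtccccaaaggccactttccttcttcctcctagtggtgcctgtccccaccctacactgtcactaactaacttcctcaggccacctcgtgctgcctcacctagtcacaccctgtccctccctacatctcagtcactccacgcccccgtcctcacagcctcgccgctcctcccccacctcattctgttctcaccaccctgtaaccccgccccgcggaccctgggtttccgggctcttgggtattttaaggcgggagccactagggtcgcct

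A window was found for 6 of the 10 genes (Ctsc, Ctsd, Ctsl, Ctss, Ctsz and Cst3), and none for Ctsb, Ctsh, Cst6 and Cstb. CACGTG occurred in 2 of the 6, at positions -245 and -98 of Ctsd and -236 of Ctsl, counted from the start site to the first base of the motif. The share of all 32851 RefSeq windows with CACGTG was 7.15%. TGGAAA occurred in 3 of the 6, at -46 of Ctsl, -219 of Ctss (as its reverse complement) and -247 of Cst3, against 21.4% of all windows. The Ctsc and Ctsz windows held neither. These matches describe the letters in the window and show no binding.

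The members spanned a wide range of RNA levels, which were compared between genes in RPKM. Ctsd, whose product is the main aspartic protease of the lysosome, was highest with a mean of 563 RPKM over the 4 libraries, place 120 among all genes listed. This place rests on reads not placed at a single site. With uniquely placed exon reads alone, still divided by the full exon length, Ctsd was at 117 to 174 RPKM. That value is a lower bound, so it does not settle the order of Ctsd and Cstb. With all exon reads counted, Ctsd was followed by Cstb with 282 RPKM, and then by Ctsl with 168 RPKM. Ctsb had 107 RPKM and Cst3 102 RPKM, and these were the only neighbours in the order whose values overlapped over the libraries. Ctsz followed with 65.6 RPKM, Ctsh with 37.7 RPKM and Ctsc with 8.29 RPKM. Cst6 with 2.25 RPKM and Ctss with 0.490 RPKM stood at the bottom.

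**Figure D1:**
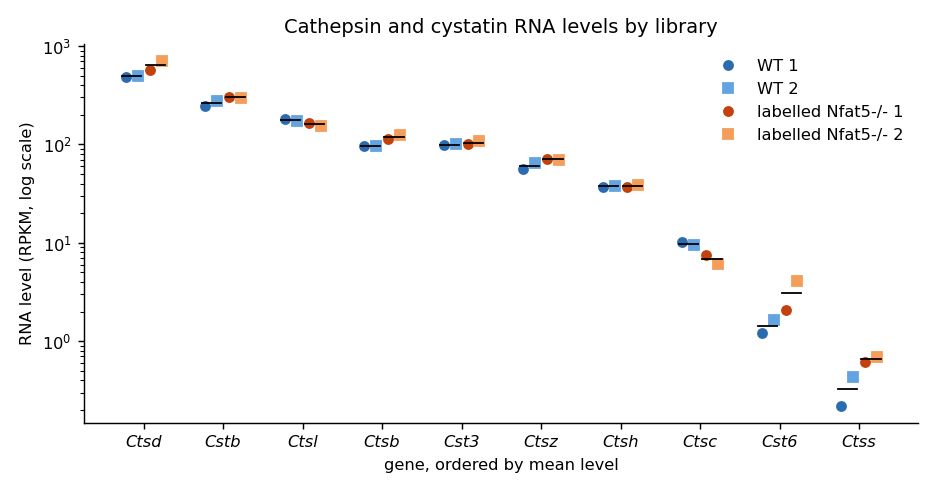
RNA level of the 10 genes in RPKM on a log scale, with a point for each library and a line at each group mean (n = 2 libraries each). With all exon reads counted Ctsd is highest in each library and Ctss lowest, and the groups overlap in Ctsh and Cst3. Most exon reads of Ctsd were not placed at a single site, so its place above Cstb is not settled.

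No member passed the threshold between the labelled genotypes. In the edgeR quasi-likelihood test 0 of the 10 genes had an adjusted p under 0.05, where 1.27% of all 12614 genes tested did (0.943% higher and 0.325% lower). All 10 genes were among those tested. At an unadjusted p under 0.05 there were 4 of 10 (Ctsb, Ctsd and Cst6 higher, Ctsc lower), against 14.6% of all genes tested (8.17% higher and 6.47% lower). DESeq2 also gave 4 members at an unadjusted p under 0.05, against 10.7% of all genes tested, and 0 at its adjusted p, against 3.39%. In RPKM the groups did not overlap in 8 of 10 (6 higher and 2 lower), against 46.5% of all genes tested (21.6% higher and 25.0% lower). The median log2 fold change was 0.22 for the members and -0.01 for all genes tested.

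The tests set a bound on what could have been missed. The 95% interval of the log2 fold change, which is not adjusted for the number of genes, lay inside a 2-fold change either way in 8 members. In the other 2, Ctss and Cst6, it reached past 2-fold. Group means of RPKM that differed at least 2-fold without overlap, the higher being 2 RPKM or more, were found for 1 member, Cst6, against 1.67% of all genes tested.

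**Figure D2:**
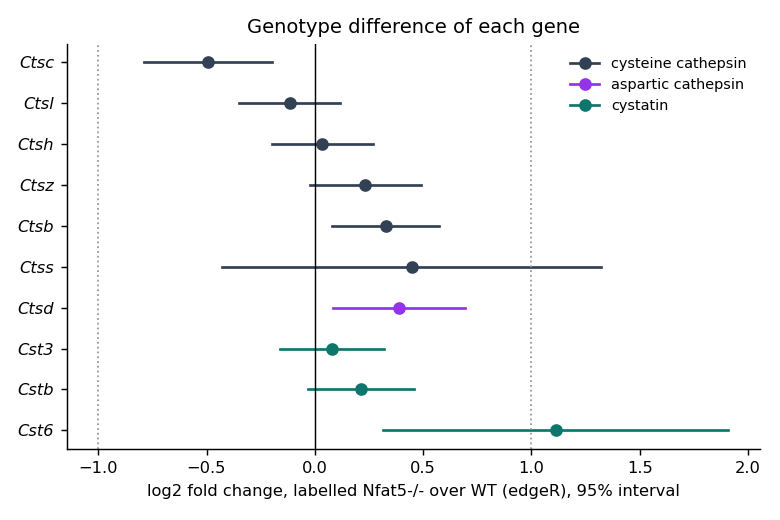
Log2 fold change of each gene from edgeR, libraries labelled Nfat5-/- over WT, with its 95% interval not adjusted for the number of genes, and dotted lines at a 2-fold change either way. The intervals of Ctsb, Ctsc, Ctsd and Cst6 leave out 0, and those of Cst6 and Ctss reach past the right dotted line.

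Among the cysteine cathepsins, Ctsc had the smallest p of all members. It lies on chromosome 7 (GRCm38, 88278085 to 88310888) with 12 exons listed and encodes cathepsin C, the dipeptidyl peptidase that activates serine proteases of immune cells by trimming their ends. Its level was 10.1 and 9.44 RPKM (WT) against 7.53 and 6.14 RPKM (labelled Nfat5-/-). Both of the latter lay below both WT libraries. The log2 fold change was -0.49 (SE 0.13), with a 95% interval from -0.79 to -0.20 and an edgeR adjusted p of 0.132. It was the sole member with a 95% interval wholly below 0.

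Ctsb, on chromosome 14 (63122462 to 63145923, 10 exons listed), encodes cathepsin B, an abundant lysosomal endopeptidase that also trims peptides from their ends. It measured 96.0 and 95.5 RPKM (WT) against 113 and 124 RPKM (labelled Nfat5-/-). The groups did not overlap, and the group means were 95.8 ± 0.356 and 118 ± 8.24 RPKM (SD, n = 2 each). Its log2 fold change was 0.33 (SE 0.10), and 0.223 was the edgeR adjusted p. Ctsb overlaps Fdft1 on the opposite strand, and Ctsz likewise overlaps Nelfcd. No source states whether strand was used in counting, and reads from the overlaps cannot be told apart.

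Ctsl, on chromosome 13 (64359337 to 64370890, 19 exons listed), encodes cathepsin L, the lysosomal endopeptidase that cystatin M/E restrains in the epidermis. It measured 182 and 171 RPKM (WT) against 167 and 154 RPKM (labelled Nfat5-/-). Both values of the latter were below WT, but the nearest libraries of the groups were closer than the replicates of either group. The log2 fold change was -0.12 (SE 0.10, edgeR adjusted p 0.646), and it was -0.06 without WT replicate 1 and -0.07 without replicate 2 labelled Nfat5-/-. The ratio of Ctsl to Ctsb in RPKM was 1.89 and 1.79 (WT) against 1.48 and 1.24 (labelled Nfat5-/-). These ratios did not overlap between the groups and carry no test.

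Ctsz (chromosome 2, 174427493 to 174439039), the gene of the carboxypeptidase cathepsin Z, measured 56.3 and 64.9 RPKM (WT) against 71.7 and 69.5 RPKM (labelled Nfat5-/-). The groups were apart, but the WT replicates differed from each other by more than WT replicate 2 did from the nearest library of the other group. On gene reads Ctsz had an edgeR log2 fold change of 0.23 (SE 0.11) at an adjusted p of 0.380, and 0.15 without WT replicate 1. Ctsh (chromosome 9, 90054152 to 90076089) encodes cathepsin H, an aminopeptidase of the lysosome. It measured 37.0 and 37.9 RPKM (WT) against 37.3 and 38.4 RPKM (labelled Nfat5-/-), and the groups overlapped. Its log2 fold change of 0.04 had a 95% interval from -0.20 to 0.27 (edgeR adjusted p 0.910), and its direction turned to -0.0047 without replicate 2 labelled Nfat5-/-.

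Ctss, the gene of cathepsin S, which cuts the invariant chain in antigen-presenting cells, was close to the limit of detection. It lies on chromosome 3 (95526786 to 95556403) and had 12 and 18 gene reads (WT) against 26 and 19 (labelled Nfat5-/-). Introns took 25.3% of its 75 reads, against 0.0260% to 1.20% in 8 other members and 0 intron reads in Cst6. In RPKM, which counts exon reads alone, it measured 0.221 and 0.432 (WT) against 0.611 and 0.694 (labelled Nfat5-/-), so the groups did not overlap. Its log2 fold change on gene reads was 0.45 (SE 0.37), with a 95% interval from -0.43 to 1.32 and an edgeR adjusted p of 0.643. On exon reads alone the log2 fold change of Ctss was 0.95 (SE 0.49, edgeR adjusted p 0.418), and 0.95 on those uniquely placed. At this depth neither a 2-fold rise nor no change was outside the interval on gene reads. Of 7 genes whose products work with cathepsin S in antigen presentation 6 were tested and 0 passed in edgeR or DESeq2 (2 at an unadjusted p under 0.05 in each), and Cd74, which encodes the invariant chain, measured 1.11 to 2.21 RPKM over the libraries. The MHC class II genes H2-Aa, with 6 and 14 gene reads (WT) against 52 and 29 (labelled Nfat5-/-), and H2-Eb1, with 12 and 19 against 52 and 41, did not overlap between the groups, at edgeR adjusted p-values of 0.101 and 0.102. H2-DMb1 had a log2 fold change of -0.50 without overlap in RPKM (edgeR adjusted p 0.429), and the groups overlapped in H2-Ab1 (log2 fold change 0.71) and H2-DMa (-0.07).

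Ctsd lies on chromosome 7 (142375911 to 142388038, minus strand, 12 exons listed). It measured 483 and 501 RPKM (WT) against 567 and 701 RPKM (labelled Nfat5-/-), with replicate 2 of the latter well above the other 3 libraries. The group means were 492 ± 12.5 and 634 ± 94.8 RPKM (SD, n = 2 each). The log2 fold change was 0.39 (SE 0.13), with a 95% interval from 0.08 to 0.70 and an edgeR adjusted p of 0.242. Without that replicate 2 it was 0.21 and without replicate 1 labelled Nfat5-/- it was 0.55.

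Most exon reads of Ctsd were not placed at a single site. Another gene model on the same strand, AC034099.1, spans 142371096 to 142382667 and so overlaps the end of Ctsd, but its part in this was not tested. Of the exon reads of Ctsd 24.9% were placed at a single site, and of those of AC034099.1 1.93%. In the uniquely placed exon reads alone, divided by the full exon length, Ctsd was at 117 and 123 RPKM (WT) against 145 and 174 RPKM (labelled Nfat5-/-). The log2 fold change in those reads was 0.43 with an edgeR adjusted p of 0.156, in the same direction as with all reads.

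The 3 cystatin genes had log2 fold changes from 0.08 to 1.11, and none passed. Cst6 had the largest change of all members. It lies on chromosome 19 (5344705 to 5349574, minus strand, 3 exons listed) and rests on 79 and 145 gene reads (WT) against 198 and 307 (labelled Nfat5-/-). Its level was 1.20 and 1.66 RPKM (WT) against 2.08 and 4.07 RPKM (labelled Nfat5-/-). The groups did not overlap, but those labelled Nfat5-/- stood further from each other than the lower of them did from WT. The library highest in Cst6 was also the highest in summed smooth muscle markers, mostly Acta2, and their part in the result was not tested.

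The ratio of the group means of Cst6 was 2.15 in RPKM. On gene reads the log2 fold change of Cst6 was 1.11 (SE 0.34), with a 95% interval from 0.32 to 1.91 and an edgeR adjusted p of 0.201. Its size leaned on 1 library: it was 0.54 (edgeR adjusted p 0.773) without replicate 2 labelled Nfat5-/-, and 1.54 without replicate 1.

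Cstb (chromosome 10, 78425669 to 78427622) measured 248 and 278 RPKM (WT) against 304 and 298 RPKM (labelled Nfat5-/-). The latter were above both WT libraries, and the WT replicates stood further apart than the groups did at their nearest points. For Cstb the log2 fold change on gene reads was 0.21 (SE 0.10, edgeR adjusted p 0.402). Cst3 (chromosome 2, 148871722 to 148875692) measured 98.0 and 102 RPKM (WT) against 100.1 and 108 RPKM (labelled Nfat5-/-), with overlapping groups. For Cst3 it was 0.08 (edgeR adjusted p 0.778), with a 95% interval from -0.16 to 0.32, and lay at 0.0095 without replicate 2 and 0.15 without replicate 1 labelled Nfat5-/-.

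Added up per library, the 7 cathepsin genes had 864 and 880 RPKM (WT) against 964 and 1095 RPKM (labelled Nfat5-/-). The 3 cystatin genes had 347 and 381 RPKM (WT) against 407 and 410 RPKM (labelled Nfat5-/-). Both sums were thus higher in both of the latter libraries. The ratio of cathepsin to cystatin RNA was 2.49 and 2.31 (WT) against 2.37 and 2.67 (labelled Nfat5-/-), and the groups overlapped. With uniquely placed exon reads over the full exon length it was 1.43 and 1.32 (WT) against 1.33 and 1.38 (labelled Nfat5-/-), also with overlap. For the 6 cysteine cathepsins alone, which are the targets of the cystatins, the sum stayed between 380 and 397 RPKM. Its ratio to the cystatins was 1.10 and 0.996 (WT) against 0.975 and 0.959 (labelled Nfat5-/-), without overlap. The nearest libraries of the groups were closer in this ratio than the WT replicates were to each other. Ctsd made up 55.9% and 56.9% of the cathepsin sum (WT) against 58.9% and 64.1% (labelled Nfat5-/-). These sums are descriptions without a test, and the values of Ctsd include reads that were not uniquely placed.

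**Figure D3:**
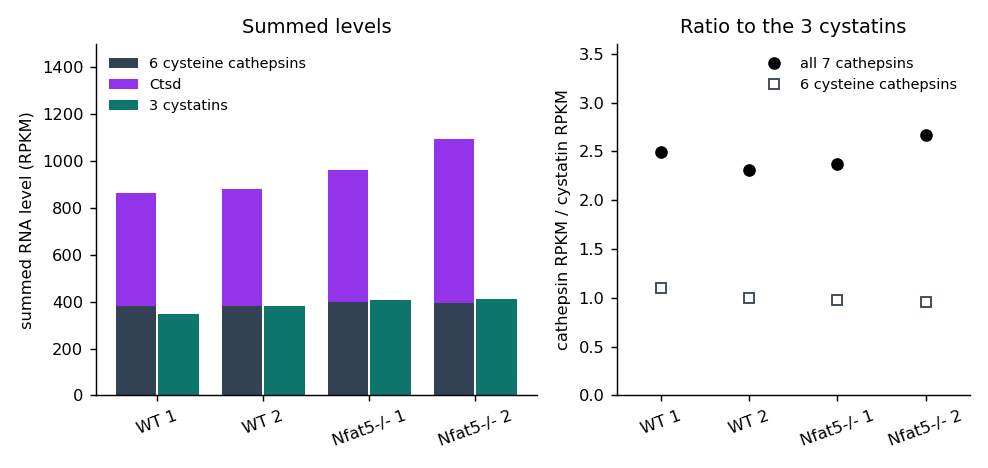
Left, summed RPKM of the 6 cysteine cathepsins, of Ctsd and of the 3 cystatins in each library. Right, the ratio of the cathepsin sum to the cystatin sum, which lies between 2.31 and 2.67 with Ctsd and between 0.959 and 1.10 for the cysteine cathepsins alone.

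Relatives of the members were examined from lists of further cathepsins and cystatins. Of 9 further cathepsins and related proteases 6 were tested and 0 passed in edgeR or DESeq2, with 1 at an unadjusted p under 0.05 in each, and their median log2 fold change was 0.04. Legumain (Lgmn), the asparagine-specific protease that cystatin M/E also blocks, was expressed at 37.3 and 30.3 RPKM (WT) against 29.7 and 28.4 RPKM (labelled Nfat5-/-). The edgeR adjusted p of Lgmn was 0.538, at a log2 fold change of -0.20 (SE 0.13). Ctsa, the gene of the protective protein cathepsin A, had 24.1 and 26.7 RPKM (WT) against 28.4 and 32.1 RPKM (labelled Nfat5-/-). Its edgeR adjusted p was 0.348. Both stayed within a 2-fold change in their 95% intervals.

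Ctsf, Ctso and Ctsw are cysteine cathepsin genes with lower levels in these cells. Ctsf measured 1.04 and 1.19 RPKM (WT) against 1.56 and 3.85 RPKM (labelled Nfat5-/-), so that replicate 2 of the latter stood apart from the other 3 libraries, as for Cst6 (log2 fold change 1.27, SE 0.44, edgeR adjusted p 0.255). Ctso and Ctsw had log2 fold changes of -0.31 and -0.60 and edgeR adjusted p-values of 0.431 and 0.365. Ctse had 444 gene reads, of which 99.8% lay in introns and 1 in an exon, so its reads are no measure of spliced Ctse RNA. The 8 placental cathepsin genes, near relatives of Ctsl, had 0 reads in every library, which allows up to 0.185 CPM at a limit of 3 reads in the shallowest library, for counting error only.

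Stefin A is the close relative of cystatin B in the cytosol, and mice carry several copies of its gene on chromosome 16. Of 16 further cystatin genes 8 had 0 reads in every library and 3 were tested. Csta1 and BC100530, 2 of the 3, rose past the threshold in edgeR and in DESeq2. Of all genes tested 1.27% passed in edgeR and 3.39% in DESeq2. Csta1 (36119946 to 36131241) rose from 0.843 and 0.698 RPKM in WT to 1.97 and 2.30 RPKM, with an edgeR log2 fold change of 1.46 (SE 0.24) at an adjusted p of 0.0438. BC100530 (36359382 to 36367748) rose from 1.52 and 1.14 RPKM to 7.28 and 5.36 RPKM, with an edgeR log2 fold change of 2.24 (SE 0.31) at an adjusted p of 0.0252. Both genes were at least 2-fold apart in group mean RPKM, and their groups did not overlap.

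These stefin values have limits of their own. Of the exon reads of BC100530 59.8% were uniquely placed, while for Csta1 all were. With uniquely placed exon reads the edgeR adjusted p was 0.0288 for Csta1 and 0.0298 for BC100530. Neither gene kept its call with either library labelled Nfat5-/- left out, as given with Tgm3 below. For the third gene tested, BC117090, the exon-based RPKM was higher (0.738 and 1.74 on average) while the fitted log2 fold change on gene reads was -0.55, and 81.8% of its gene reads lay in introns. Stfa2 had 0 reads in both WT libraries and 13 and 4 reads in the libraries labelled Nfat5-/-, and was too low to be tested.

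Of 6 genes taken as skin partners of cystatin M/E, among them Lgmn, 1 rose past the threshold in edgeR, Tgm3, and 2 in DESeq2, Tgm3 and Tgm1. Tgm3, the gene of transglutaminase 3, rose from 0.145 and 0.120 RPKM in WT to 0.693 and 0.811 RPKM, with an edgeR log2 fold change of 2.48 (SE 0.35) at an adjusted p of 0.0252, on 12 reads in each WT library and 74 in each of the others. Tgm1, the gene of the transglutaminase bound to the membrane of KCs, had 3.67 and 1.93 RPKM (WT) against 10.7 and 6.0 RPKM (labelled Nfat5-/-). Its edgeR adjusted p was 0.0874. Lor, the gene of loricrin, had 2.54 and 2.59 RPKM (WT) against 3.94 and 6.07 RPKM (labelled Nfat5-/-). Its edgeR adjusted p was 0.134. For Flg, the gene of filaggrin, 90.7% of the gene reads lay in introns, so its value on gene reads is no measure of spliced RNA. In RPKM, from exon reads, Flg was at 0.201 and 0.277 (WT) against 0.446 and 1.16 (labelled Nfat5-/-), without overlap. Ivl, also among the 6, had an edgeR log2 fold change of 0.47 (SE 0.26) at an adjusted p of 0.461. With either library labelled Nfat5-/- left out, Tgm3, Csta1 and BC100530 each missed the threshold (edgeR adjusted p from 0.0874 to 0.277), at log2 fold changes that kept their sign. Csta1 also missed it without WT replicate 2 (edgeR adjusted p 0.0582).

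**Figure D4:**
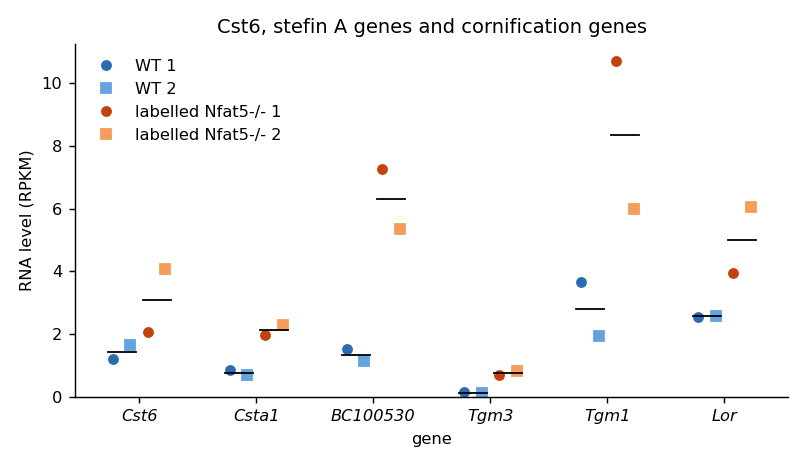
RNA level in RPKM of Cst6, of 2 stefin A genes and of 3 cornification genes, with a point for each library and a line at each group mean (n = 2). Csta1, BC100530 and Tgm3 passed the threshold in edgeR, while Cst6, Tgm1 and Lor did not. In all 6 genes the groups do not overlap, as in 46.5% of all genes tested. Tgm1 and Lor were chosen after their values were seen. Flg, Ivl and Lgmn of the same list as the cornification genes are not plotted.

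The rest of the lysosome was measured to place the members. The list of 26 genes taken as lysosomal hydrolases includes Psap and Gm2a, which encode activator proteins instead. None of the 26 passed in edgeR (2 at an unadjusted p under 0.05) or in DESeq2 (1). Of them 9 were higher and 17 lower, with a median log2 fold change of -0.06. None of 21 genes of the lysosomal membrane and its proton pump passed in edgeR (1 at an unadjusted p under 0.05), while 1 did in DESeq2 (Laptm4a), with 15 higher and 6 lower and a median of 0.09. For the 10 genes that sort enzymes to the lysosome, among them both mannose 6-phosphate receptors, 0 passed in either tool (1 at an unadjusted p under 0.05 in each) and the median was -0.02. Of 4 genes of TFEB and its relatives 3 were tested and 0 passed in either tool (0 at an unadjusted p under 0.05). Their log2 fold changes ran from 0.02 for Tfe3 to 0.29, with a median of 0.27. Tfe3 was the most abundant with 13.7 to 14.3 RPKM and overlapping groups. The others tested lay at or below 1.04 RPKM. The 26 genes of the hydrolase list summed to 559 and 530 RPKM (WT) against 526 and 583 RPKM (labelled Nfat5-/-), and the groups overlapped. Psap alone made up 176 and 171 RPKM (WT) against 194 and 220 RPKM (labelled Nfat5-/-) of these sums.

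**Figure D5:**
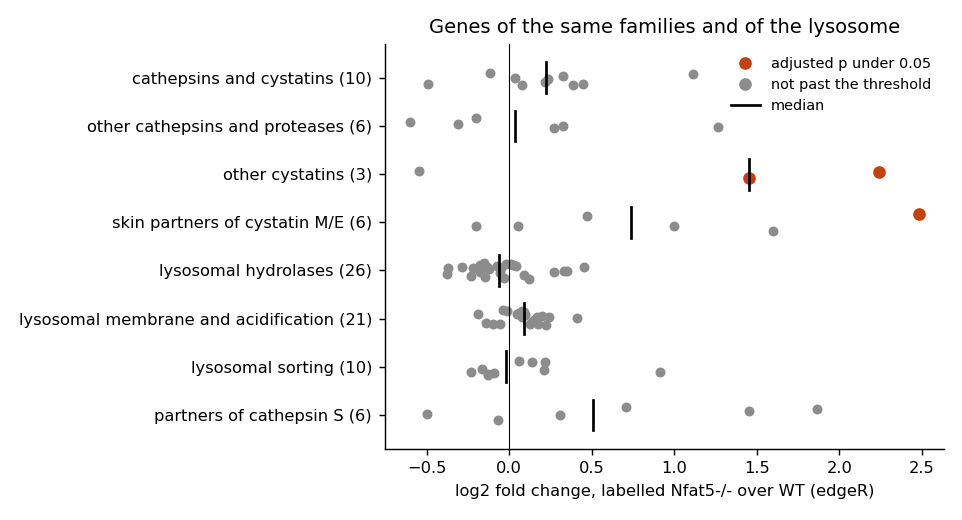
Log2 fold change from edgeR, libraries labelled Nfat5-/- over WT, of each gene tested in the lists (number tested in brackets), with a line at the median of each list and coloured points for genes past an adjusted p of 0.05. Csta1, BC100530 and Tgm3 are the 3 coloured points, and the medians of the 3 lysosomal lists plotted lie between -0.06 and 0.09.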

How the data were processed

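Polyadenylated RNA of 4 KC libraries was sequenced by the authors, trimmed and aligned to GRCm38 with the CLC Genomics Workbench at default settings. The deposited tables give read counts per gene made by the authors, not normalized (whole gene, exons, introns, and those uniquely placed), and RPKM, which equalled exon reads per exon length and mapped reads. Counting is not stated to use strand. Gene coordinates of all 10 members matched GENCODE M21.

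Total gene reads were tested with edgeR 4.0.16 in R 4.3.3 (filterByExpr, TMM factors from 0.980 to 1.01, quasi-likelihood test, genotype as sole term), two-sided, with Benjamini-Hochberg adjustment over 12614 genes and a threshold of 0.05. SE is the log2 fold change divided by the square root of F. The procedure was also run on simulated counts, and the outcome is not given here. Alternatives were other scalings and filters, DESeq2 1.42.0, limma-trend (limma 3.58.1) on log2(RPKM + 1) and log2(RPKM + 0.1) for genes with at least 1 RPKM in 2 libraries, exon reads, a replicate block and each library left out. For the 3 called genes outside the members and the cell type markers (Csta1, BC100530 and Tgm3), alternatives were chosen after seeing the data.

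The members and lists were chosen with earlier results of these data known. Named genes are the members, listed genes past the threshold and family genes with a mean of at least 2 RPKM. Ctse, Ctsf, Flg, Ivl, Tgm1, Lor, Laptm4a, Psap, Gm2a, BC117090, Stfa2, Tfe3, Cd74, H2-Aa, H2-Ab1, H2-Eb1, H2-DMa, H2-DMb1, Cd68, Cd207, Itga6, Des, Pmel, Krt5, Krt14 and Krt15 were named after their values were seen. Intervals and the floor of 3 reads cover counting and replicate error of these libraries only. Per the sources the 2 libraries of a genotype are independent experiments.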

Additional observations from a re-analysis of the deposited data

How the results depend on the processing

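Of 138 values of the 10 members under up to 14 alternatives, 134 kept their direction and their side of the threshold, 3 newly passed it and 1 turned. Without a filter on low counts 3 members passed, Ctsc (edgeR adjusted p 0.00654), Ctsd (0.0153) and Cst6 (6.1e-06), and 1137 of all genes instead of 160. The cause was not tested. The log2 fold change of Ctsh ranged from -0.0047 (without replicate 2 labelled Nfat5-/-) to 0.078 (without replicate 1) with 1 library left out. The number of members past the threshold was 0 under each of the other alternatives, each library left out included, and 4 of 10 had an unadjusted p under 0.05 in all of these except without WT replicate 1 (3) and without replicate 2 labelled Nfat5-/- (1). All genes called numbered 364 at an adjusted p under 0.1, 427 with DESeq2, 132 with the replicate block, and 25 to 391 with 1 library left out (25 without replicate 2 and 39 without replicate 1 labelled Nfat5-/-, 391 without WT replicate 2). The lone library of an arm is then assumed to vary like the others. The replicate block changed no call of a member, and Csta1 missed the threshold under it (edgeR adjusted p 0.0828). Same-numbered libraries had deviations from their group means that correlated at -0.087 across genes, and they share a number only. The ratio of cathepsin to cystatin RNA was 1.38 in WT and 1.36 in the libraries labelled Nfat5-/- with uniquely placed exon reads, against 2.40 and 2.52, because most reads of Ctsd are then left out. Ctss was not tested with limma-trend, being under 1 RPKM. The precision rests on 2 libraries per genotype for each member, and Ctss had 75 reads in all.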
